A study of Homo sapiens with 10 samples.

Results

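The first step of a stiffness series, from polyacrylamide gels of 400 Pa to gels of 1 kPa, was examined in MCF10A, a mammary epithelial line of human origin that does not form tumours. The comparison takes the 4 libraries labelled 400 Pa and 1 kPa at 5 mM glucose, 2 per gel, out of 10 libraries in the series. They were chosen by their labels and column headings, and no measured value entered the choice. Both gels belong to the soft end of the series, and the series adds, at 5 mM glucose, gels of 6 and 60 kPa, and the 400 Pa gel with 25 mM glucose in the medium.

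All groups shared the cell line, a fibronectin coat, 24 h of culture and a medium with horse serum, epidermal growth factor, insulin, hydrocortisone and cholera toxin. Each library held RNA pooled from 4 gels, and the labels call the 2 libraries of a group biological replicates. The sources do not say that these pools came from separate cultures grown on different days, so p-values measure only the spread between these pools. Acrylamide recipes are given for all gels but that of 1 kPa. In the header's command, the path of the 1 kPa library with more reads names no gel, and its group rests on the column heading.

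Cells sense the stiffness of what they adhere to through integrins, which link the extracellular matrix to the actin cytoskeleton inside the cell. Pull on these links is read out by actin-dependent transcription factors, among them YAP with its TEAD partners and SRF with its coactivators. Short, highly expressed genes in an epithelial cell encode mostly ribosomal proteins, small subunits of respiratory complexes, and small cytoskeletal and calcium-binding proteins. Many ribosomal protein mRNAs begin with a cytosine followed by a run of pyrimidines, the 5′ terminal oligopyrimidine tract, which couples their translation to growth signals.

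With M for mega, the 400 Pa libraries held 18.4 M and 8.54 M reads in exons, and the 1 kPa libraries held 7.199 M and 3.57 M, so libraries are named below as deeper and shallower. Exon reads were 64.3% and 66.0% of mapped reads at 400 Pa and 63.7% and 62.0% at 1 kPa. The 10 most expressed genes took 5.28% and 5.40% of exon reads at 400 Pa and 4.83% and 4.94% at 1 kPa. Over the genes tested, the median absolute difference between libraries was 0.09 on the log2 scale within 400 Pa, 0.12 within 1 kPa, and 0.13 to 0.17 for the 4 pairs across the gels. The pair of 6 kPa libraries, which enters the estimate of the spread, differed by 0.29 and stands apart from the rest. Its shallower library differed by only 0.20 and 0.18 from the 60 kPa libraries, and its deeper library by 0.17 and 0.18 from the 1 kPa libraries. Values at 6 kPa below thus join 2 unlike libraries. Summed FPKM of the 10 mammary epithelial markers lay between 3135 and 3385 in the 4 libraries. The 8 leukocyte markers summed to 20.9 and 21.3 FPKM at 400 Pa and to 14.5 and 19.4 FPKM at 1 kPa, with 4 of them at 0 in all 4 libraries, and nearly all of that sum came from CD68 and CD14. CD14 was at 9.12 and 8.32 FPKM at 400 Pa and 5.76 and 4.11 FPKM at 1 kPa. The 8 fibroblast markers summed to 15.3 to 17.6 FPKM, with 3 at 0, and the 6 endothelial markers to 0.747 to 1.20 FPKM, with 2 at 0. The part of these markers in the results was not tested.

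No gene passed the test between 1 kPa and 400 Pa. In limma on log2(FPKM + 1), 0 of 12820 genes (0%) had a Benjamini-Hochberg adjusted p under 0.05, and 776 genes (6.05%) had an unadjusted p under 0.05, of which 285 were higher and 491 lower at 1 kPa. The same fit with the 6 kPa libraries left out called 1 gene, the antisense RNA ANKRD34C-AS1. Voom, limma's test for counts, run on the whole reads recovered from the FPKM values of all 10 libraries, called 61 genes higher (0.476%) and 23 lower (0.179%). On the 4 libraries alone it called 489 higher (3.81%) and 486 lower (3.79%), a fit added after the data had been seen. In the limma fit, where each other group was set against the same 400 Pa libraries, 45 genes were called at 6 kPa (0.351%), 2722 at 60 kPa (21.2%) and 3136 at 25 mM glucose (24.5%). Below, "higher" means that both 1 kPa libraries lay above both 400 Pa libraries, and "lower" the reverse, and neither is a call.

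Differences were small. The median log2 fold change over all genes was -0.01, and the 5th and 95th percentiles were -0.32 and 0.33. Only 112 genes lay beyond 1 in size, and 20 of these were among the 7702 genes that averaged 5 FPKM or more. Over all genes tested, 2929 were higher (22.8%) and 3370 lower (26.3%). The other 6521 had overlapping libraries. All fold changes here are on the log2(FPKM + 1) scale, which understates the change of genes at low levels. Of the genes tested, 4495 overlap the span of another gene in the table, and since the counting set no strand, their reads can include those of the partner. Of the genes given with values below, SNRPB, RPL5, PSMB7, SLMO2-ATP5E, EEF2, PABPC1, FTH1, TXNRD1, SLC7A11, CALR, CD24, KRT15, TP63, ITGB1, MYH9, SLC7A5, PIEZO1, TXNIP, SNHG12, ANKRD34C-AS1, LOC105369147, LMO7-AS1 and ACYP2 are among them, beside those marked where they are named. In these bulk libraries, fewer cells of a type and less RNA per cell cannot be told apart.

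**Figure D1:**
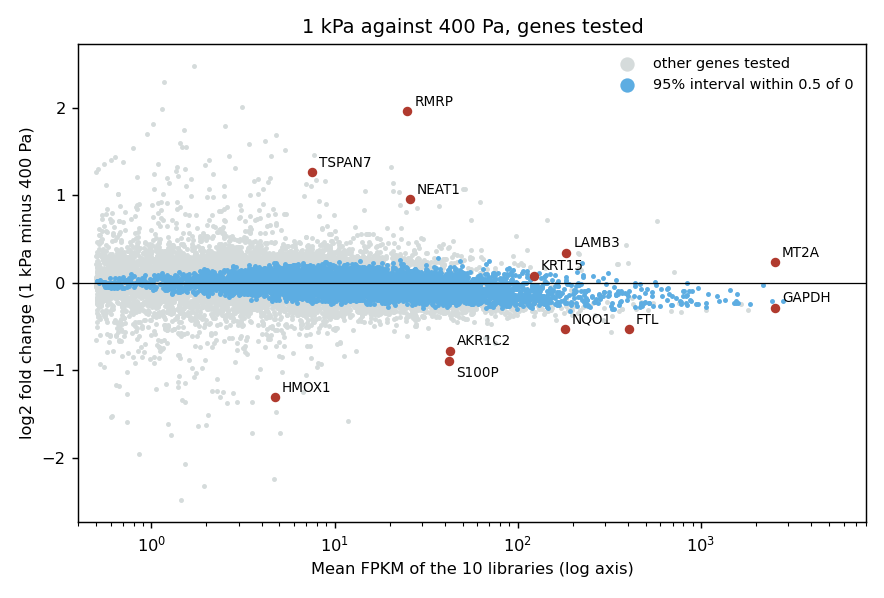
Log2 fold change at 1 kPa against 400 Pa (vertical axis) against the mean FPKM of the 10 libraries (horizontal log axis) for the 12820 genes tested, with blue points for the 5915 genes whose 95% interval lay within 0.5 of 0. Labelled genes were chosen after their values were seen, and most highly expressed genes sit just below 0.

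Highly expressed genes were lower together at 1 kPa. Of the 450 genes that averaged 100 FPKM or more, 330 were lower and 36 higher, with a median log2 fold change of -0.16. The 166 of these with a counted transcript under 1000 bases, called short below, had a median of -0.18, with 121 lower and 8 higher. The pattern was not particular to short genes: the 220 highly expressed genes from 1000 to under 3000 bases also had a median of -0.18, with 175 lower and 11 higher. Only the 64 highly expressed genes of 3000 bases or more were nearer 0, at -0.08, with 34 lower and 17 higher. The difference between the short and long medians was -0.095. No single gene of the short group was called by limma, and voom on 10 libraries called 2 of them lower, FTL and MYL6, and 2 higher, MIR7704 and MIR663A. The counts of gene lists below are to be read beside the share of genes at their level. That share was 73.3% lower from 100 FPKM and 26.3% over all genes. It was 51.2% from 20 to under 100 FPKM at 2000 to under 3000 bases. Long genes went the other way: at 5000 bases or more, 39.7% were higher and 12.7% lower.

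The shift of the short, highly expressed genes was seen in each pair of libraries. Their median difference was -0.13 and -0.16 for the deeper and shallower 1 kPa libraries against the deeper 400 Pa library. Against the shallower 400 Pa library it was -0.20 and -0.22. Within a gel the same medians were 0.06 between the 400 Pa libraries and -0.01 between the 1 kPa libraries, so each pair across the gels differed by more than the pairs within a gel. The value depends on the scale: these genes summed to 68536 and 71550 FPKM at 400 Pa and to 63429 and 63479 FPKM at 1 kPa, and all genes tested summed to 302330 and 313080 against 290480 and 284400. With every library scaled to the same summed FPKM, an alternative added after the data had been seen, the short median was -0.08 against a median of 0.07 over all genes, while the long median turned to 0.01. The gap between the short genes and all genes was thus -0.16 as deposited and -0.15 at equal sums.

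The first bases of 7 of the highest short genes show which of them have the pyrimidine start. Each line gives 15 bases before and 15 bases from the annotated transcript start, in RefSeq's GRCh38.p14, with capitals for the first base or, where the transcript begins with C and has at least 5 pyrimidines in a row, for that run. They are among the highest short genes but are not a complete ranking. RPL8, with a mean of 1575.6 FPKM, lies above RPL37A and RPS6 in level and is not printed. TMSB10 lies at chr2:84905641-84905670 and RPL37A at chr2:216498829-216498858, MT2A at chr16:56608569-56608598, S100A2 at chr1:153565830-153565859, S100A6 at chr1:153535977-153536006, RPS14 at chr5:150449725-150449754 and RPS6 at chr9:19380222-19380251. TMSB10, MT2A and RPL37A are on the plus strand and the other 4 on the minus strand.
TMSB10: gggcgccgctcttttGtttcttgctgcagc
MT2A: gccgcgctgcactccAccacgcctcctcca
S100A2: cagtctccaggccccAgagcaggggttgcc
S100A6: actgcgacacagcccAtcccctcgaccgct
RPS14: ccgccccctcccactCTCTCTTTCCggtgt
RPL37A: gcaccgcgtctcttcCTTTCTgggctcgga
RPS6: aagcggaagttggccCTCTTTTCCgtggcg

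Among these 7, RPS14, RPL37A and RPS6 begin with a run of 10, 6 and 9 pyrimidines, and the other 4 do not. Of the 166 short, highly expressed genes, 136 (81.9%) matched a start window, and 41 of them (30.1%) had the run, against 20.7% of the 363 matched genes of at least 100 FPKM and 4.04% of all 27305 start windows in the table. The median log2 fold change was -0.16 for the 41 genes with the run and -0.17 for the 95 without it. Of the genes with the run 78.0% were lower, and of those without it 70.5%. Leaving out ribosomal proteins, the medians were -0.19 for 12 genes with the run and -0.17 for 84 without. The search was made after the data had been seen, on the strand of the gene, and a match is a description of the letters at 1 annotated start.

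The limits of 1000 bases and 100 FPKM cut through a continuum. Just inside the length limit, LGALS3, DRAP1 and SNRPB (992, 996 and 998 bases) had log2 fold changes of -0.21, -0.02 and -0.04, and just outside it BTF3, RPL5 and PSMB7 (1000, 1004 and 1005 bases) had -0.13, -0.23 and -0.25. Just inside the limit on level, LGALS3, SF3B6 and DRAP1 (means of 100.04, 100.32 and 100.68 FPKM) had -0.21, -0.17 and -0.02. Just outside it, SLMO2-ATP5E, UBE2C and CLTA (98.4, 98.9 and 99.2 FPKM) had 0.01, -0.15 and -0.30.

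Values of the highest short genes show the size of the shift against the replicates. TMSB10, which encodes the actin-monomer binding protein thymosin β10, was at 3028 and 3094 FPKM at 400 Pa and at 2647 and 2659 FPKM at 1 kPa (log2 fold change -0.21 ± 0.08, SE; n = 2 per group; limma adjusted p = 0.800). Both 1 kPa libraries were below both 400 Pa libraries. RPS14, of the small ribosomal subunit, was at 1945 and 2121 FPKM against 1674 and 1609 FPKM (-0.31 ± 0.09). RPL37A, of the large subunit, was at 1631 and 1690 FPKM against 1398 and 1431 FPKM (-0.23 ± 0.09). S100A6, a calcium-binding protein, was at 2090 and 2089 FPKM against 1756 and 1780 FPKM (-0.24 ± 0.07). In these 3 genes too the libraries of the 2 gels did not overlap.

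The set was not uniform. MT2A, a metallothionein that binds zinc and copper, was at 2166 and 2310 FPKM at 400 Pa and 2384 and 2898 FPKM at 1 kPa (0.23 ± 0.23), higher in both 1 kPa libraries with the shallower of them above the other 3. S100A2, another calcium-binding protein, was at 2031 and 2137 FPKM against 2126 and 1980 FPKM (-0.02 ± 0.09), with overlapping libraries. The 8 short genes that were higher were MT2A, MT1E, MIF, SNHG5, ATP5F1E, COX6C, MIR7704 and MIR663A. The last 2 are microRNA hairpins shorter than a usual sequenced fragment, and a poly(A) library counts reads over their position and not the mature RNA. Of the 166 short genes, 53 overlap another gene of the table. The 112 that overlap none and have 1 copy had a median of -0.19, with 84 lower and 3 higher.

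**Figure D2:**
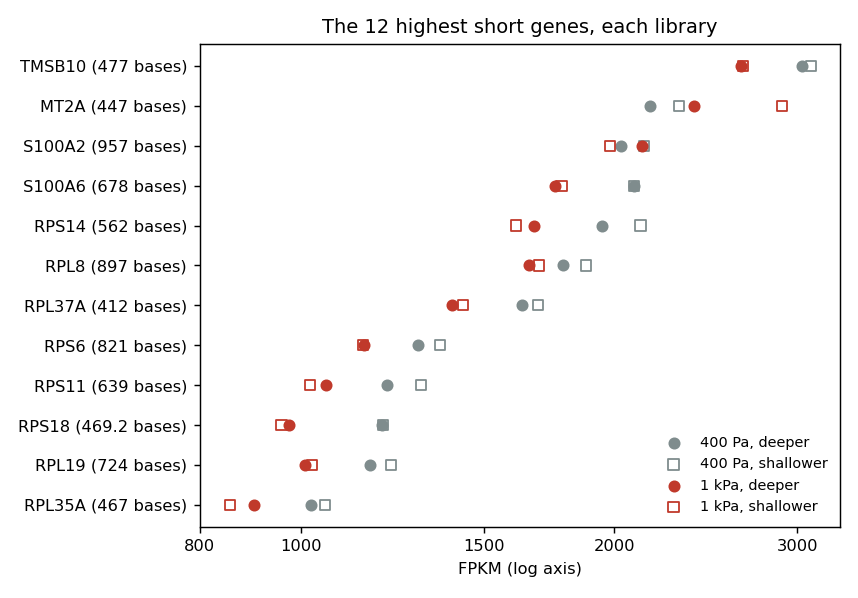
FPKM of the 12 highest short genes (horizontal log axis) in the 2 libraries of 400 Pa (grey) and 1 kPa (red), deeper libraries as circles and shallower ones as squares, with the counted length in bases beside each name. In all but MT2A and S100A2 both red symbols lie left of both grey ones.

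Length and level both went with the size of the difference. In the genes of 100 FPKM or more, the median was -0.14 for 35 genes under 500 bases, -0.19 for 131 genes of 500 to under 1000 bases, -0.19 for 150 genes of 1000 to under 2000 bases, -0.16 for 70 genes of 2000 to under 3000 bases and -0.11 for 48 genes of 3000 to under 5000 bases. It was 0.03 for the 16 genes of 5000 bases or more, a bin too small to carry the trend, which without it ends at -0.11. In genes of 5 to 20 FPKM the median ran from -0.07 for the 230 genes of 500 to under 1000 bases to 0.07 for the 1075 genes of at least 5000 bases. Below 5 FPKM it ran from -0.01 to 0.06 over the same lengths. Over all 2354 genes of at least 5000 bases, 934 were higher and 299 lower (median 0.06).

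Across genes, which are not independent replicates and share their libraries, the log2 fold change had a Spearman rho of 0.24 with length and -0.23 with mean FPKM (n = 12820). Its rho with GC content was -0.02 (n = 12650). The replicates gave -0.14 with length for the shallower minus the deeper 400 Pa library, and -0.02 for the shallower minus the deeper 1 kPa library. A trend with length thus also stood between libraries of one gel. Its part in the result was not tested, beyond the alternative in which each library was corrected along length: there the short and long medians were -0.13 and -0.10.

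**Figure D3:**
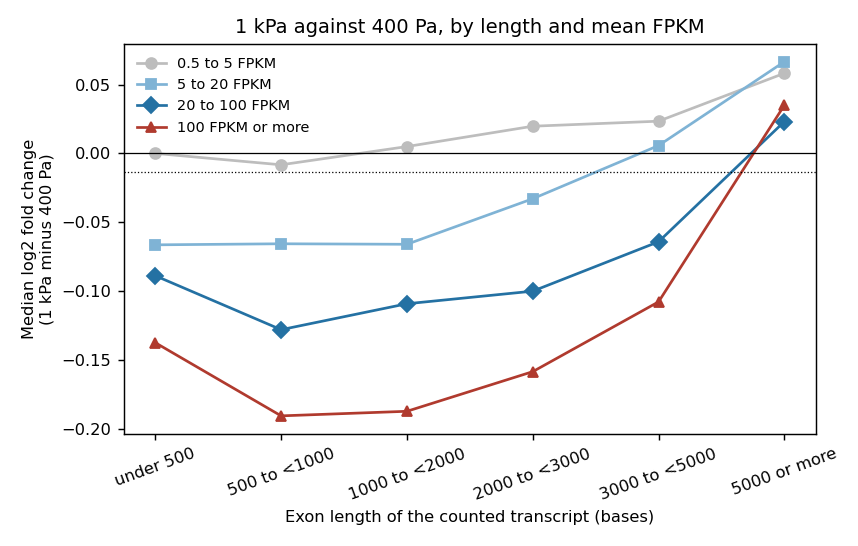
Median log2 fold change at 1 kPa against 400 Pa (vertical axis) by length of the counted transcript in bases (horizontal axis), with 1 line for each range of mean FPKM; the dotted line is the median over all genes, -0.01. The lines for 20 FPKM and above lie below 0 below 5000 bases and all 4 lie above 0 at 5000 bases or more, where the highest range holds 16 genes.

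Ribosomal protein genes make up 50 of the 166 short, highly expressed genes. Of all genes of at least 100 FPKM, 73.3% were lower (median -0.16), and the 2 ribosomal lists lay on either side of that share. Of 47 measured genes of large ribosomal subunit proteins, 37 were lower (78.7%) and 1 was higher (median -0.19). Of 32 of the small subunit 19 were lower (59.4%) and 3 higher (median -0.15). At equal summed FPKM, where the median over all genes is 0.07, these medians were -0.10 and -0.05. RPL15 was at 207 and 209 FPKM at 400 Pa and 175 and 159 FPKM at 1 kPa (-0.31 ± 0.10). RPL24 was at 411 and 395 FPKM against 334 and 320 FPKM (-0.30 ± 0.10). Both were chosen after their values were seen, and both show non-overlapping gels. RPL36 was at 960 and 983 FPKM against 911 and 1031 FPKM (-0.00 ± 0.11), with overlapping libraries. The genes of this family that were higher, RPL21, RPS26, RPS10 and RPS27, were all under 7 FPKM. Ribosomal protein genes have many near-identical copies in the genome, among which reads can be split, so single members are uncertain.

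Medians of other translation and mitochondrial lists also lay below 0, by an amount that depends on the scale. At equal summed FPKM they were -0.03 for translation factors, -0.04 for mitochondrial ribosomal proteins, -0.05 for complex I and -0.07 for complexes II to V. The list of translation factors and other mRNAs with a pyrimidine start had 15 of 22 lower and 3 higher (median -0.13). EEF2, the elongation factor that moves the ribosome along the mRNA, was at 1286 and 1359 FPKM against 1204 and 1208 FPKM (-0.13 ± 0.11). PABPC1, the poly(A)-binding protein, was at 563 and 577 FPKM against 564 and 555 FPKM (-0.03 ± 0.08), and its libraries overlapped. Of 52 mitochondrial ribosomal proteins 27 were lower and 1 higher (median -0.13). Of 38 subunits of respiratory complex I, 23 were lower and 2 higher (median -0.14). NDUFB9, 1 of these, was at 251 and 257 FPKM against 203 and 206 FPKM (-0.31 ± 0.10). Of 42 subunits and assembly genes of complexes II to V, 28 were lower and 4 higher (median -0.17). COX4I1 of complex IV was at 444 and 461 FPKM against 401 and 391 FPKM (-0.19 ± 0.07). In NDUFB9 and COX4I1 both 1 kPa libraries lay below both of the softer gel. The shares lower were 68.2% for translation factors and 66.7% for complexes II to V, against 73.3% of all genes of at least 100 FPKM. For mitochondrial ribosomal proteins the share was 51.9%, against 51.5% of genes of 20 to under 100 FPKM and 1000 to under 2000 bases. For complex I it was 60.5%, against 50.4% at that level and 500 to under 1000 bases.

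Genes of cytosolic metabolism and protein turnover also had medians below 0, which at equal summed FPKM were -0.12 for glycolysis and -0.09 for the proteasome. Of 19 genes of glycolysis 12 were lower and 2 higher (median -0.22). GAPDH was at 3077 and 3188 FPKM at 400 Pa and 2623 and 2526 FPKM at 1 kPa (-0.28 ± 0.08; limma adjusted p = 0.800; adjusted p = 0.0237 by voom on 10 libraries). Its gels did not overlap. PGK1, which makes ATP in glycolysis, was at 215 and 216 FPKM against 175 and 172 FPKM (-0.31 ± 0.09). PFKL, a subunit of phosphofructokinase, was at 33.6 and 37.1 FPKM against 36.0 and 34.5 FPKM (-0.00 ± 0.15). Of 31 proteasome subunits 25 were lower and 1, PSMA3, was higher (median -0.18). PSMB4 of the proteolytic core was at 250 and 251 FPKM against 220 and 216 FPKM (-0.20 ± 0.10). The share lower was 63.2% for glycolysis, with a median level of 128 FPKM, against 73.3% of all genes of at least 100 FPKM. For the proteasome it was 80.6%, with a median level of 69.6 FPKM, against 51.5% of genes of 20 to under 100 FPKM and 1000 to under 2000 bases.

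Of 20 genes often used as references, 15 were lower and 1 was higher (median -0.20). The 95% interval of 16 of the 20 lay within 0.5 of 0, and limma called 0 of them. ACTB, cytoplasmic β-actin, was at 2621 and 2764 FPKM against 2315 and 2352 FPKM (-0.21 ± 0.10). It was lower at 1 kPa without overlap. TBP was at 6.90 and 5.99 FPKM against 6.40 and 6.06 FPKM (-0.04 ± 0.17), and POLR2A at 40.6 and 42.4 FPKM against 40.1 and 40.8 FPKM (-0.03 ± 0.10). Over the 22 settings run, the median of this list lay between -0.22 and -0.10.

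Among the lists with at least 3 measured members, the antioxidant genes had the lowest median. NRF2 is a transcription factor that turns on genes of glutathione and thioredoxin metabolism, heme breakdown and iron storage when cells meet oxidants or electrophiles. Of 25 measured NRF2 targets, 24 were lower (96.0%) and 0 were higher (median -0.33), and this median lay between -0.37 and -0.23 over the 22 settings run. The list had a median level of 49.8 FPKM and a median length of 2147 bases. Of all genes of 20 to under 100 FPKM and 2000 to under 3000 bases, 51.2% were lower (median -0.10). Limma called 0 of the 25, 16 had an unadjusted p under 0.05, and voom called 7 on 10 libraries and 19 on the 4 libraries. The list was drawn up with earlier results of these libraries known, so its direction is not independent evidence.

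HMOX1, heme oxygenase, which breaks heme down to biliverdin, iron and carbon monoxide, was at 10.6 and 10.0 FPKM at 400 Pa and at 3.52 and 3.62 FPKM at 1 kPa. Its reads numbered 482 and 206 at 400 Pa against 63 and 33 at 1 kPa. The log2 fold change was -1.31 ± 0.16 (n = 2 per group; limma adjusted p = 0.145; adjusted p = 0.000133 by voom on 10 libraries), and it had the lowest p of all genes in limma. The 1 kPa libraries lay close together and far below the softer gel. HMOX1 lies at hg19 chr22:35777060-35790207. Restricting the fit to genes that overlap no other gene, a step added after the data had been seen, gave HMOX1 an adjusted p of 0.0487.

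AKR1C2, an aldo-keto reductase that acts on steroids and carbonyls, was at 59.9 and 62.6 FPKM against 36.1 and 34.5 FPKM (-0.78 ± 0.10; limma adjusted p = 0.145). AKR1C1 was at 100 and 102 FPKM against 69.1 and 61.1 FPKM, and AKR1C3 at 99.1 and 94.5 FPKM against 64.3 and 61.0 FPKM. These 3 neighbouring genes of chromosome 10 are close copies, so reads may be split among them and single members are uncertain. NQO1, a quinone reductase, was at 227 and 230 FPKM against 163 and 155 FPKM (-0.53 ± 0.10; limma adjusted p = 0.602). FTL, the ferritin light chain, was at 598 and 653 FPKM against 442 and 424 FPKM (-0.53 ± 0.11). None of these genes overlapped between the gels. With each library corrected along GC content, limma called AKR1C1, AKR1C2, AKR1C3, NQO1 and FTL lower, with adjusted p from 0.0145 to 0.0308.

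Other members differed less. TXNRD1, thioredoxin reductase, was at 56.7 and 54.8 FPKM against 43.6 and 43.9 FPKM (-0.34 ± 0.10). GCLC, the catalytic subunit of glutathione synthesis, was at 26.3 and 26.1 FPKM against 20.9 and 18.3 FPKM (-0.41 ± 0.15). FTH1, the ferritin heavy chain, was at 1538 and 1600 FPKM against 1354 and 1464 FPKM (-0.16 ± 0.09). SLC7A11, the cystine importer, was at 9.50 and 9.02 FPKM against 8.63 and 8.23 FPKM (-0.12 ± 0.18). ABCC3, a drug and bile-salt exporter, was the only member whose libraries overlapped, at 41.0 and 45.5 FPKM against 41.5 and 45.9 FPKM (0.01 ± 0.13). ALDH3A1, an aldehyde dehydrogenase outside the list and chosen after its values were seen, was at 207 and 222 FPKM against 156 and 153 FPKM (-0.47 ± 0.09).

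The other groups share the 400 Pa libraries with this comparison, so their values are given only side by side. The median of the 25 NRF2 targets was -0.33 at 1 kPa, -0.37 at 6 kPa, -0.39 at 60 kPa and -0.33 at 25 mM glucose, each against the same 2 libraries. HMOX1 was at 3.69 and 4.45 FPKM at 6 kPa, at 3.02 and 2.30 FPKM at 60 kPa, and at 3.29 and 2.49 FPKM at 25 mM glucose. All 8 libraries other than 400 Pa at 5 mM glucose thus lay under 5 FPKM. A difference between the gels and a property of the 2 shared libraries cannot be told apart here.

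**Figure D4:**
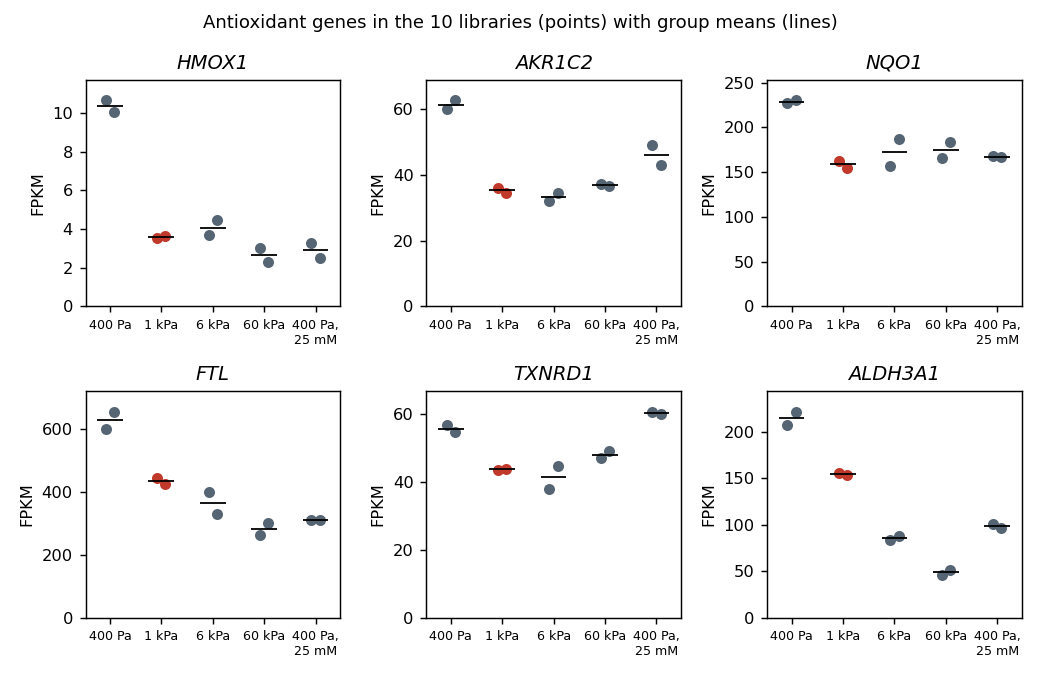
FPKM (vertical axes from 0) of 6 antioxidant genes in each of the 10 libraries (points) with group means (lines); 1 kPa is in red and the horizontal axis gives the gel, with 25 mM glucose last. In each panel both 1 kPa points lie below both 400 Pa points, and HMOX1 is at 10.6 and 10.0 FPKM on 400 Pa at 5 mM glucose and under 5 FPKM in all other groups.

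Genes of the secretory pathway, sterol synthesis and protein folding were mostly lower. Of 19 genes of the unfolded protein response 13 were lower and 2 higher (median -0.22, and -0.13 at equal summed FPKM). CALR, the chaperone calreticulin of the endoplasmic reticulum, was at 399 and 414 FPKM against 334 and 318 FPKM (-0.32 ± 0.09). HSPA5, the chaperone BiP, was at 114 and 118 FPKM against 109 and 100 FPKM (-0.15 ± 0.09). Of 23 genes of cholesterol synthesis 15 were lower and 1 higher (median -0.15, and -0.05 at equal summed FPKM). The shares lower were 68.4% for the unfolded protein response and 65.2% for cholesterol synthesis, with median levels of 46.5 and 31.2 FPKM. Of all genes of 20 to under 100 FPKM and 2000 to under 3000 bases, 51.2% were lower. FDFT1, squalene synthase, was at 181 and 178 FPKM against 141 and 126 FPKM (-0.42 ± 0.11; adjusted p = 0.0133 by voom on 10 libraries), and its gels did not overlap. FDPS, at 328 and 336 FPKM against 248 and 248 FPKM (-0.42 ± 0.09), overlaps the antisense RNA RUSC1-AS1, and since the counting command sets no strand, reads of the pair cannot be told apart.

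Of 25 heat shock and chaperone genes 13 were lower and 2 higher (median -0.13, and -0.03 at equal summed FPKM). The share of 52.0% lower is below the 73.3% of all genes of at least 100 FPKM, and the median level of the list was 108 FPKM. HSPA8, the constitutive heat shock cognate, was at 812 and 820 FPKM against 659 and 640 FPKM (-0.33 ± 0.09; adjusted p = 0.0109 by voom on 10 libraries). HSP90AA1, the inducible HSP90, was at 240 and 237 FPKM against 283 and 270 FPKM (0.21 ± 0.13). HSPA8 was lower and HSP90AA1 higher at 1 kPa, each without overlap. HSPA1A, at 18.7 and 18.7 FPKM against 13.4 and 15.5 FPKM (-0.36 ± 0.12), has a near-identical copy next to it and is uncertain.

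Basal markers were near their level at 400 Pa, with 5 of 14 lower and 7 higher (median 0.00), while 9 of 15 keratins were lower and 1 higher (median -0.15). At equal summed FPKM these medians were 0.10 and -0.06. KRT15, a basal keratin, was at 193 and 209 FPKM at 400 Pa and 212 and 213 FPKM at 1 kPa (0.08 ± 0.11, 95% interval -0.16 to 0.32). KRT5 was at 1613 and 1652 FPKM against 1511 and 1566 FPKM (-0.09 ± 0.09). KRT14 was at 239 and 249 FPKM against 237 and 243 FPKM (-0.02 ± 0.12). TP63, the transcription factor of basal epithelia, was at 9.25 and 9.57 FPKM against 9.70 and 9.58 FPKM (0.03 ± 0.13). For KRT15, KRT5 and KRT14 the 95% intervals lay inside 0.5 on either side of 0. For KRT15 the 60 kPa libraries, against the same 400 Pa pair, differed by -3.29.

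Of 15 cornification genes, which build the barrier of stratified epithelia, 8 were lower and 1 was higher (median -0.28, and -0.18 at equal summed FPKM). TGM1, the transglutaminase that cross-links the cornified envelope, was at 9.89 and 10.9 FPKM against 7.06 and 7.37 FPKM (-0.47 ± 0.13). SLPI, a secreted protease inhibitor, was at 178 and 177 FPKM against 141 and 151 FPKM (-0.28 ± 0.09). Both gels stood apart in these 2 genes. Of 17 S100 and annexin genes 11 were lower and 1, ANXA1, was higher (median -0.20, and -0.11 at equal summed FPKM). S100P, of the S100 family, was at 71.4 and 82.1 FPKM against 44.6 and 37.1 FPKM (-0.90 ± 0.24; limma adjusted p = 0.788; adjusted p = 0.00148 by voom on 10 libraries). Of 12 luminal markers 6 were lower and 2 higher (median -0.19, and -0.10 at equal summed FPKM), with CD24 at 58.5 and 62.5 FPKM against 44.9 and 45.2 FPKM (-0.42 ± 0.11).

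In the other direction, genes of the extracellular matrix were higher on the median. Of 23 measured genes 14 were higher and 3 lower (median 0.11, and 0.20 at equal summed FPKM), and 4 had an unadjusted p under 0.05, all higher. LAMB3, the β3 chain of laminin-332 in the basement membrane, was at 169 and 183 FPKM at 400 Pa and 220 and 227 FPKM at 1 kPa (0.34 ± 0.13; limma adjusted p = 0.800; adjusted p = 0.0317 by voom on 10 libraries). Its gels did not overlap. LAMA5, a chain of other laminins, was at 16.3 and 17.8 FPKM against 24.2 and 25.1 FPKM (0.51 ± 0.23), and COL7A1, the collagen of anchoring fibrils, at 1.63 and 1.94 FPKM against 3.05 and 3.23 FPKM (0.57 ± 0.22). LAMB3, LAMA5 and COL7A1 overlap other genes of the table and are uncertain to that extent. LAMA3, which encodes another laminin chain, was at 69.6 and 71.0 FPKM against 80.8 and 76.7 FPKM (0.16 ± 0.11). FN1, fibronectin, was at 23.2 and 24.0 FPKM against 26.1 and 25.6 FPKM (0.12 ± 0.09).

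Of 32 large cytoskeletal and cell surface genes, 17 were higher and 5 lower (median 0.06, and 0.16 at equal summed FPKM). Their median length was 8174 bases and their median level 55.8 FPKM. The share higher was 53.1%, against 35.9% of all genes of 20 to under 100 FPKM and at least 5000 bases. PLEC, plectin, which ties intermediate filaments to hemidesmosomes, was at 111 and 119 FPKM against 146 and 153 FPKM (0.37 ± 0.21). DSP, the desmosomal plakin, was at 62.2 and 62.5 FPKM against 74.3 and 74.6 FPKM (0.25 ± 0.08). Both stood higher at 1 kPa without overlap. MYH9, the heavy chain of non-muscle myosin, was at 139 and 144 FPKM against 141 and 146 FPKM (0.02 ± 0.10), and FLNA, the actin cross-linker filamin A, at 216 and 232 FPKM against 212 and 212 FPKM (-0.08 ± 0.13). The median of this list turned to -0.01 with each library corrected along length, and that of the matrix list stayed above 0 under all 22 settings.

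Integrin genes and the readouts of mechanical signalling differed little. Of 24 integrin and focal adhesion genes 8 were higher and 7 lower (median 0.03). ITGB1 was at 81.0 and 78.8 FPKM against 90.7 and 85.5 FPKM (0.14 ± 0.12). Of 20 YAP and TEAD targets 7 were higher and 3 lower (median 0.03). CTGF (CCN2) was at 16.1 and 17.0 FPKM against 13.2 and 11.01 FPKM (-0.43 ± 0.12), lower without overlap, and CYR61 (CCN1) at 18.2 and 19.6 FPKM against 21.8 and 20.5 FPKM (0.16 ± 0.12), higher without overlap. Both encode matrix-associated signalling proteins. ANKRD1, another target, was below the filter, at 0.267 and 0.354 FPKM against 0.045 and 0.177 FPKM. Of 21 SRF targets 5 were higher and 8 lower (median -0.00). Over the 22 settings the median lay between -0.04 and 0.10 for the integrin list, -0.00 and 0.11 for the YAP and TEAD list and -0.06 and 0.08 for the SRF list, so the sign of each depends on the processing. YAP1 itself was at 24.6 and 23.5 FPKM against 25.9 and 25.0 FPKM (0.08 ± 0.10).

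Of 18 genes of the lamina, mechanosensors and nuclear linkers 11 were higher and 4 lower (median 0.08, and 0.18 at equal summed FPKM). LMNA, which encodes lamins A and C, was at 218 and 236 FPKM against 248 and 262 FPKM (0.17 ± 0.15). PIEZO1, a stretch-activated channel, was at 20.3 and 23.2 FPKM against 26.1 and 27.1 FPKM (0.28 ± 0.22). RHOA, the GTPase that drives actomyosin contraction, was at 294 and 290 FPKM against 231 and 220 FPKM (-0.37 ± 0.09; adjusted p = 0.0169 by voom on 10 libraries). Its effector kinases ROCK1 and ROCK2 were at 5.82 and 5.24 against 7.55 and 7.25 FPKM and at 4.98 and 4.82 against 6.85 and 5.61 FPKM. In these libraries RHOA was lower and both kinases higher, without overlap, and no difference passed limma. RHOA and the ROCK genes were chosen after their values were seen.

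Of 25 immediate early genes 13 were higher and 4 lower (median 0.10, and 0.19 at equal summed FPKM). FOSB was at 1.21 and 1.21 FPKM against 2.07 and 2.35 FPKM (0.54 ± 0.17). EGR1 was at 13.7 and 13.9 FPKM against 18.1 and 15.4 FPKM (0.26 ± 0.11). ATF3 was at 9.54 and 9.47 FPKM against 7.62 and 7.53 FPKM (-0.29 ± 0.14). These are transcription factors switched on within minutes of a stimulus, and FOSB and EGR1 were higher while ATF3 was lower, each without overlap. MYC was at 71.5 and 73.8 FPKM against 75.1 and 77.2 FPKM (0.07 ± 0.10).

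Amino acid and cell cycle genes were mixed. Of 22 ATF4 targets 11 were higher and 5 lower (median 0.06, and 0.15 at equal summed FPKM), with SLC7A5, a transporter of large neutral amino acids, at 382 and 408 FPKM against 463 and 457 FPKM (0.22 ± 0.16). STC2, a secreted stanniocalcin, was at 11.3 and 10.5 FPKM against 16.5 and 14.4 FPKM (0.47 ± 0.12; adjusted p = 0.0169 by voom on 10 libraries). Of 35 genes of S phase and of G2/M, 10 were higher and 18 lower (median -0.10, and -0.00 at equal summed FPKM). MKI67 was at 28.5 and 29.6 FPKM against 36.9 and 36.5 FPKM (0.33 ± 0.10), and CDC20 at 136 and 150 FPKM against 128 and 118 FPKM (-0.22 ± 0.10). Both mark dividing cells, and they differed in opposite directions.

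**Figure D5:**
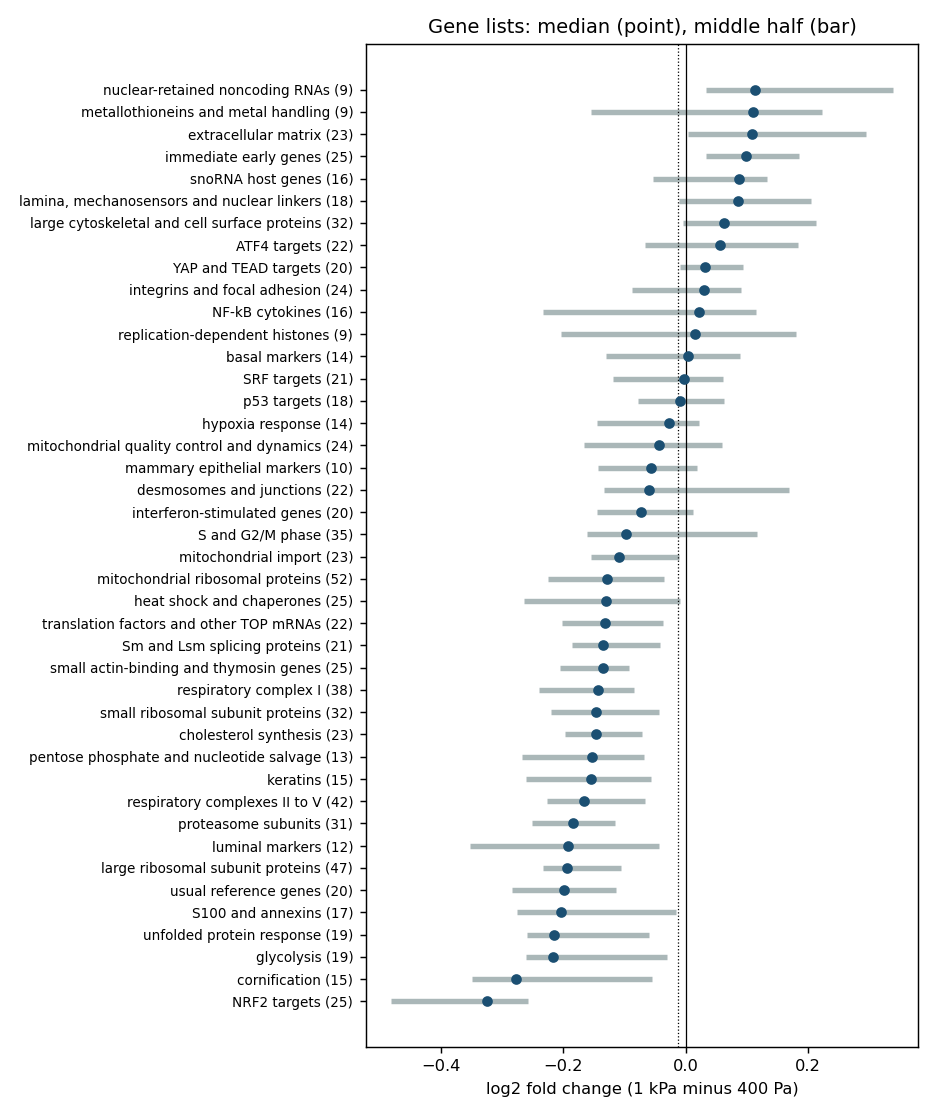
Median (point) and interquartile range (bar) of the log2 fold change at 1 kPa against 400 Pa (horizontal axis) for the 42 gene lists with at least 3 measured members, whose number is in brackets; the dotted line is the median over all genes, -0.01. The NRF2 targets lie lowest at -0.33, and 29 of the 42 medians lie below 0.

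Most of the remaining lists had medians below 0 or near it, and metallothioneins and metal handling genes had a median above 0 under all 22 settings. Of 25 small actin-binding and thymosin genes 19 were lower and 1 higher (median -0.14), with MYL6, a light chain of myosin, at 788 and 805 FPKM against 634 and 643 FPKM (-0.32 ± 0.08). Of 22 desmosome and junction genes 9 were lower and 6 higher (-0.06). Of 21 Sm and Lsm proteins of the spliceosome 10 were lower and 1 higher (-0.13), of 13 genes of the pentose phosphate route and nucleotide salvage 8 and 1 (-0.15), and of 23 genes of mitochondrial import 9 and 0 (-0.11). Mitochondrial quality control had 9 lower and 4 higher of 24 (-0.04), with interferon-stimulated genes at 7 and 3 of 20 (-0.07). The hypoxia response had 4 lower and 3 higher of 14 (-0.03), and p53 targets 4 and 4 of 18 (-0.01). NF-kB cytokines had 5 lower and 3 higher of 16 (0.02) and replication-dependent histones 3 and 2 of 9 (0.02). Metallothioneins and metal handling genes had 3 lower and 5 higher of 9 (0.11). The medians of the desmosome, quality control, interferon, hypoxia, p53, NF-kB, histone and basal lists changed sign under at least 1 of the settings run.

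Noncoding RNAs held some of the largest differences. NEAT1, which builds nuclear paraspeckles, was at 22.2 and 23.4 FPKM at 400 Pa and at 38.2 and 53.5 FPKM at 1 kPa (0.96 ± 0.18; limma adjusted p = 0.602; adjusted p = 5.4e-06 by voom on 10 libraries). Both 1 kPa libraries were well above the softer gel. MALAT1, another nuclear RNA, was at 204 and 196 FPKM against 247 and 260 FPKM (0.34 ± 0.18), but an antisense gene of the table overlaps it. Of 9 nuclear-retained noncoding RNAs 4 were higher and 0 lower (median 0.11). Of 16 host genes of small nucleolar RNAs 8 were higher and 4 lower (median 0.09), among them SNHG12 at 9.90 and 10.9 FPKM against 15.4 and 16.2 FPKM (0.56 ± 0.12).

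RMRP, an RNA of a nuclear and mitochondrial ribonuclease, was at 10.7 and 6.65 FPKM against 13.3 and 95.02 FPKM (1.97 ± 0.70), and RPPH1, the RNA of ribonuclease P, at 12.96 and 12.5 FPKM against 18.7 and 58.8 FPKM (1.32 ± 0.52). One library, the shallower of 1 kPa, carried both values, and without it they were 0.59 and 0.53. Both RNAs as a rule carry no poly(A) tail.

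Among the 8 largest differences upward in genes that averaged 5 FPKM or more without overlap between the gels, TSPAN7 was the one gene over 400 bases that overlaps no other gene. It encodes a tetraspanin of the cell surface and was at 6.03 and 6.62 FPKM against 14.9 and 18.5 FPKM (1.26 ± 0.49; limma adjusted p = 0.800). ANKRD34C-AS1 was at 18.2 and 16.3 FPKM against 41.5 and 37.0 FPKM (1.14 ± 0.38). Both were apart from the softer gel in each library. LOC105369147 was at 7.72 and 6.19 FPKM against 15.1 and 18.9 FPKM (1.18 ± 0.50). Under the same limit, which leaves out HMOX1, the largest differences downward in genes over 400 bases were LMO7-AS1 at -0.96 ± 0.53, TRIM16L at -0.93 ± 0.24, S100P at -0.90 ± 0.24 and ACYP2 at -0.84 ± 0.21. TRIM16L has a close relative, TRIM16, with which reads may be shared. The other 7 of the 16 genes named by size were hairpins or small nucleolar RNAs that overlap other genes, namely SNORD35B, MIR6084, SNORD49A, MIR4657, SNORD4A, MIR1268A and MIR4700.

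What stayed within narrow bounds can be read from the intervals. For 5915 of 12820 genes (46.1%) the 95% interval lay within 0.5 of 0 on the log2 scale, that is, within 1.41-fold. It did so for 341 of the 450 genes of at least 100 FPKM (75.8%) and for 1193 of the 5118 genes under 5 FPKM (23.3%). The median distance from estimate to interval end was 0.38 over all genes and 0.24 over those of at least 100 FPKM. Among the short, highly expressed genes 112 of 166 were bounded in this way, so most of those with a lower level at 1 kPa were also bounded to a small difference. The highest bounded genes were TMSB10, GAPDH, ACTB, S100A2 and S100A6.

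Some regulators lay within these bounds and some did not. DDIT4, an inhibitor of mTOR signalling, was at 183 and 197 FPKM against 197 and 192 FPKM (0.03 ± 0.10). YME1L1, a protease of the inner mitochondrial membrane, was at 26.05 and 25.3 FPKM against 29.4 and 26.6 FPKM (0.12 ± 0.12). Both libraries of each gel overlapped in DDIT4 and not in YME1L1. TXNIP, a glucose-responsive arrestin that binds thioredoxin, was not bounded, at 54.9 and 54.5 FPKM against 45.7 and 42.8 FPKM (-0.30 ± 0.11). DEK, a chromatin protein, was at 35.8 and 32.4 FPKM against 44.3 and 44.7 FPKM (0.38 ± 0.18) and was not bounded either.

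The class medians at the other groups, against the same 400 Pa libraries, are set side by side. For the short, highly expressed genes they were -0.18 at 1 kPa, -0.12 at 6 kPa, -0.21 at 60 kPa and -0.10 at 25 mM glucose. For the 220 genes of middle length they were -0.18, -0.06, -0.13 and -0.21 in the same order, and for the 64 long genes -0.08, 0.01, 0.02 and -0.04. Over all genes the medians were -0.01, 0.02, 0.06 and 0.08. In each group the short, highly expressed genes lay below all genes, and a difference between groups and a property of the shared 400 Pa libraries cannot be told apart.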

How the data were processed

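Messenger RNA libraries (KAPA mRNA HyperPrep from TRIzol extracts, per the labels' protocols) were aligned to hg19, with STAR, HOMER and DESeq2 named in the submitters' processing notes without versions. The deposited FPKM table, with 10 columns, came from HOMER's analyzeRepeats.pl, run by the authors on exon tags of 1 transcript per gene and with no strand option, per the file headers. The other deposited tables were not used here. FPKM is scaled by each library's mapped reads, so a few genes or reads outside exons can shift all values of a library. Whole reads recovered from FPKM, length and library total lay within 0.12 of a whole number for 100% of the values tested. Depth and precision are given per library and by intervals. Columns carry no replicate number.

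The test was limma 3.58.1 in R 4.3.3 on log2(FPKM + 1), with an eBayes trend, for 12820 genes of 27942 with a mean of at least 0.5 FPKM, over all 10 libraries in 5 groups (5 residual and 3.98 prior degrees of freedom), with Benjamini-Hochberg adjustment and two-sided p. On simulated reads for 1 kPa against 400 Pa, over 12837 genes, the fit found 92.3% of 91 genes changed by 1 and 98.2% of 109 changed by 2 (log2), with 9 false calls among 12637 unchanged genes. The simulation gave all genes and groups 1 fixed spread, unlike the real 6 kPa pair, which differed by 0.29. It changed only genes of at least 5 FPKM and none by less than 1. It therefore does not give the share of real changes that the fit would find in these libraries. Alternatives are in the closing section.

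Members and the 45 gene lists were chosen with earlier results of these data known. Of 946 list genes 944 matched. Named genes are the 8 largest differences each way with at least 5 FPKM and libraries that do not overlap between the gels, the 12 highest short and 6 highest long genes, the 3 highest per list, the 10 highest bounded genes and 16 fixed names; the text takes some of these and adds list members with the largest differences, chosen after their values were seen. Overlap between genes was judged from the transcript spans in the table. RefSeq start windows (GRCh38.p14) matched 78.3% of genes tested, so their run was read only within sets matched above 80%, and no coordinate was converted between builds. Some genes that the rule names are not reported here.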

Additional observations from a re-analysis of the deposited data

How the results depend on the processing

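No paired analysis was possible because the table columns carry no replicate number. For genes called at 1 kPa against 400 Pa, 0 in limma as reported, limma called 4 with no filter on low values, 1 without the 6 kPa libraries, 5 with a correction along GC content and 1 with only genes without overlap or copies, and voom called 84 on 10 libraries and 975 on the 4 libraries. Leaving out 1 library at a time gave 0 to 6 calls with limma (6 without the deeper 1 kPa library, of which RMRP and 5 are hairpins, and 2 without the shallower one) and 12, 21, 23 and 32 with voom. The median of the short, highly expressed genes of -0.178 was -0.143 with centred libraries, -0.125 with a length correction and -0.0808 at equal summed FPKM, and -0.204 to -0.142 with 1 library left out (limma -0.203 to -0.143). The difference between short and long medians of -0.095 was -0.0210 with the length correction and -0.0799 from 50 FPKM. The 5915 genes with an interval inside the unchanged range were 11273 with no filter, 106 for a range of 0.25, 11900 for a range of 1, and with 1 library left out 2281 to 3164 in limma and 2894, 3768, 4773 and 5191 in voom. The number of lists with a median below 0 stayed between 22 and 32. Over 170 single genes and 21 alternatives, 3213 of 3492 values kept their direction without a call and 185 kept it with a call. Another 94 changed direction without a call, and 0 changed direction with a call. Sizes were not compared, and the cause was not tested. Depth limits genes under 5 FPKM most. Equal summed FPKM, voom on the 4 libraries, voom with 1 library left out and the genes without overlap were added after the data had been seen.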
